A study of Mus musculus with 282 samples.

Results

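The genes described here are 10 immediate early and mRNA decay genes: Fos (ENSMUSG00000021250), Fosb (ENSMUSG00000003545), Jun (ENSMUSG00000052684), Junb (ENSMUSG00000052837), Egr1 (ENSMUSG00000038418), Atf3 (ENSMUSG00000026628), Ier2 (ENSMUSG00000053560), Ier3 (ENSMUSG00000003541), Dusp1 (ENSMUSG00000024190) and Zfp36 (ENSMUSG00000044786). They were chosen by name and taken from the count tables by these identifiers, 10 of 55450 genes. Each was followed in single mouse granulocyte-monocyte progenitors (GMPs), marrow precursors of granulocytes and monocytes, with and without the cytokine TNF.

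All cells came from male and female mice of 12 to 19 weeks that were homozygous for GFP-p65, a fusion of GFP with a subunit of the transcription factor NfkB, and heterozygous for H2BmCherry, a red histone label of the nucleus. No cells without these reporters enter the comparisons. The cells were cultured for 8 h under a confocal microscope and picked one by one for Smart-Seq2, which amplifies the polyadenylated RNA of a single cell. The 238 cells that the authors' cell tables list come from 2 experiments, a 1-plate experiment (67 cells) and a 2-plate experiment (171 cells, 83 on Plate1 and 88 on Plate2). Of these, 178 had TNF and 60 are listed as blank, read here as no cytokine. The same tables sort each cell into a class of NfkB response. The 4 classes compared were oscillatory TNF (20 cells of the 1-plate and 36 of the 2-plate experiment), transient TNF (25 and 51), non-responsive TNF (3 and 18) and non-responsive blank cells (13 and 34). The sources used here give no dose, no time of TNF addition and no rule for the classes, and whether the 2 experiments used separate animals is not stated.

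Immediate early genes are switched on by many signals without the need for new protein, and their mRNAs are usually short-lived. Fos, Fosb, Jun and Junb encode leucine zipper proteins that pair to form the transcription factor AP-1, Atf3 encodes a stress-induced zipper protein of the ATF/CREB family, and Egr1 encodes a zinc finger transcription factor. Dusp1 is a phosphatase that switches off the MAP kinases p38 and JNK. Zfp36, also called tristetraprolin, binds AU-rich elements in mRNAs, that of Tnf among them, and brings in the decay machinery.

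The upstream windows of 4 genes are shown because these are the genes that passed the test in oscillatory cells, where they were higher together. Each window holds the 250 bases before the annotated start, from RefSeq on GRCm38.p6, in 5′ to 3′ direction of the gene. Capitals mark matches to any of 5 motifs searched on both strands: the NfkB consensus, the CArG box bound by serum response factor, TGACGTCA (the CRE), TGANTCA (the AP-1 site) and TATAAA. The windows of Junb (chr8:84978749-84978998, minus strand), Atf3 (chr1:191183334-191183583, minus strand), Dusp1 (chr17:26508473-26508722, minus strand) and Zfp36 (chr7:28379229-28379478, minus strand) read as follows.
Junb: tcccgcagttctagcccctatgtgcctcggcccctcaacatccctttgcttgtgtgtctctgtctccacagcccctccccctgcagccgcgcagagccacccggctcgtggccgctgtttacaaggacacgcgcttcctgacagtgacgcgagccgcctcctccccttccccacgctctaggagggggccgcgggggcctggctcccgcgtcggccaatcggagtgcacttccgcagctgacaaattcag
Atf3: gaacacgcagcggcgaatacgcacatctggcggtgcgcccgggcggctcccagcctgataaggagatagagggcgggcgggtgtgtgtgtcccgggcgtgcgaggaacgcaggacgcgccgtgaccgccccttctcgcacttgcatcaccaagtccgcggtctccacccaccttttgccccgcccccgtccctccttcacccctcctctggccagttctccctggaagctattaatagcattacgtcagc
Dusp1: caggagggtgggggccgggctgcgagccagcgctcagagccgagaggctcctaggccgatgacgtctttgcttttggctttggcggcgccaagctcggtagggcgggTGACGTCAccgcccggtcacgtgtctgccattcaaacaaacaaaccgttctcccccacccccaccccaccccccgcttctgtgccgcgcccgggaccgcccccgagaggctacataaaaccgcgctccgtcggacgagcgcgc
Zfp36: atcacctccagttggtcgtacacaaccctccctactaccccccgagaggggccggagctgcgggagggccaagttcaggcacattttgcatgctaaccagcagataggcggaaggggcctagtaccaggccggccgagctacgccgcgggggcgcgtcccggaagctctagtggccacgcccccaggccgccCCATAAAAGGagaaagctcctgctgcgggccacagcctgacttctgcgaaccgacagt

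Windows were found for 8 of the 10 genes, all but Egr1 and Ier2. The CArG box was in the window of Zfp36 alone among the 8, 58 bases before the start, and in 1.47% of all 32851 windows of this length. TGACGTCA was in the window of Dusp1 alone, 143 bases before the start, and in 1.55% of all windows. The NfkB consensus was matched in the windows of Fos, Fosb and Ier3, and in 3.90% of all windows, but in none of the 4 windows printed. TATAAA was matched in the window of Fos alone and in 12.4% of all windows, and TGANTCA in none of the 8 against 6.75% of all windows. These matches describe letters in the windows and do not show binding.

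The cells held 182301 to 3380416 reads of genes, with a median of 1339522. Fewer than 8000 genes were detected in 28 cells, of which 26 were on Plate2 of the 2-plate experiment and 24 had TNF. Levels are given as CPM (a gene's reads scaled to a common total of reads of all genes), which are not corrected for gene length, so levels are compared between groups and not between genes. The library has no molecular identifiers, so reads are not molecules and intervals cover counting error only. Markers of GMPs and of other cell types were set by symbol and, since the tables hold identifiers without names, were not analysed here.

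Of the 10 genes, 5 were read in nearly every cell, and Fosb in few. Ier2 had a read in all 178 TNF cells and all 60 blank cells, and Jun, Junb, Ier3 and Zfp36 in at least 88.3% of the cells of each group. Fos was read in 107 of 178 TNF cells (60.1%, exact 95% interval 52.5% to 67.4%) and in 35 of 60 blank cells (58.3%, 44.9% to 70.9%). Egr1 was read in 102 TNF cells (57.3%, 49.7% to 64.7%) and in 18 blank cells (30%, 18.8% to 43.2%). Fosb was the rarest, with a read in 19 TNF cells (10.7%, 6.55% to 16.2%) and 8 blank cells (13.3%, 5.94% to 24.6%). Dusp1 was read in 91.01% of TNF cells (85.8% to 94.8%) and 73.3% of blank cells (60.3% to 83.9%), and Atf3 in 83.1% and 68.3%. With cells thinned to 458260 reads, Egr1 was still read in 50.3% of 157 TNF cells and 26.3% of 57 blank cells. The 24 cells too shallow to thin, most of them TNF cells, were left out of these shares. The bars of the share plot set the groups side by side. Cells of a group share an experiment, so these intervals do not test the groups.

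**Figure D1:**
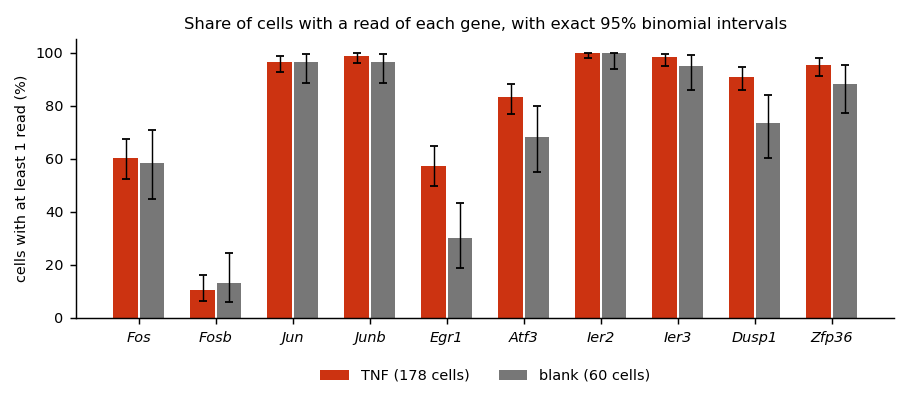
Share of cells with at least 1 read of each gene (percent, vertical axis) in 178 TNF cells (red) and 60 blank cells (grey), with exact 95% binomial intervals as bars. Egr1 is read in 57.3% of TNF and 30% of blank cells, and Ier2 in every cell.

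Reads were then summed over the cells of a group within an experiment, so that the experiment was the replicate (n = 2), and all genes were tested together. Of the 9 genes tested with TNF against blank, Junb and Dusp1 rose and the other 7 did not pass an adjusted p of 0.05 (edgeR's quasi-likelihood test, Benjamini-Hochberg over all genes). Across all 8619 genes tested 3.46% were called and 2.9% were called and higher. The 9 genes had log2 fold changes of 0.12 to 1.39, with a median of 0.75, against a median of -0.01 over all genes. Fosb was too low to be tested. In oscillatory TNF against non-responsive blank cells, 4 of 9 rose (Junb, Atf3, Dusp1 and Zfp36), beside 8.75% called and 5.88% called and higher among all 8361 genes tested. The median of the 9 genes was 1.08, against -0.02 over all genes. In transient TNF against non-responsive blank cells 0 of 9 passed, beside 1.24% of all genes called and 1.03% called and higher. Among TNF cells, Atf3 and Junb were higher in oscillatory than in transient cells, 2 of 9, beside 3.1% of all genes called and 2.52% called and higher. The non-responsive TNF cells gave 1 sum, of the 2-plate experiment, so that group has no replicate and its sum is assumed to vary like the others. Junb alone passed in non-responsive TNF against non-responsive blank cells, 1 of 9, beside 2.19% of all genes called and 1.81% called and higher. Non-responsive TNF against oscillatory and transient TNF cells gave 0 of 9, and 0% of all genes, with 888 genes at an unadjusted p under 0.05 and 93 genes but none of the 9 called by DESeq2. In a joint test of those 3 classes (oscillatory, transient and blank), 4 of 9 differed, again Junb, Atf3, Dusp1 and Zfp36, beside 6.54% of all genes. These comparisons share groups of cells and are not independent of each other. None of the 9 passed in any of them with spike-in scaling or without the experiment as a term in the fit. Where results are given without the 1-plate experiment, Plate1 and Plate2 of the 2-plate experiment stand in as replicates. Fits without the highest cell of each sum drop cells by the tested gene's own level. In these fits, 1 cell is a larger share of the smaller blank groups than of the TNF groups. Their p-values are thus no separate test of a rise. In summed reads, fewer cells with a transcript and less RNA per cell cannot be told apart.

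**Figure D2:**
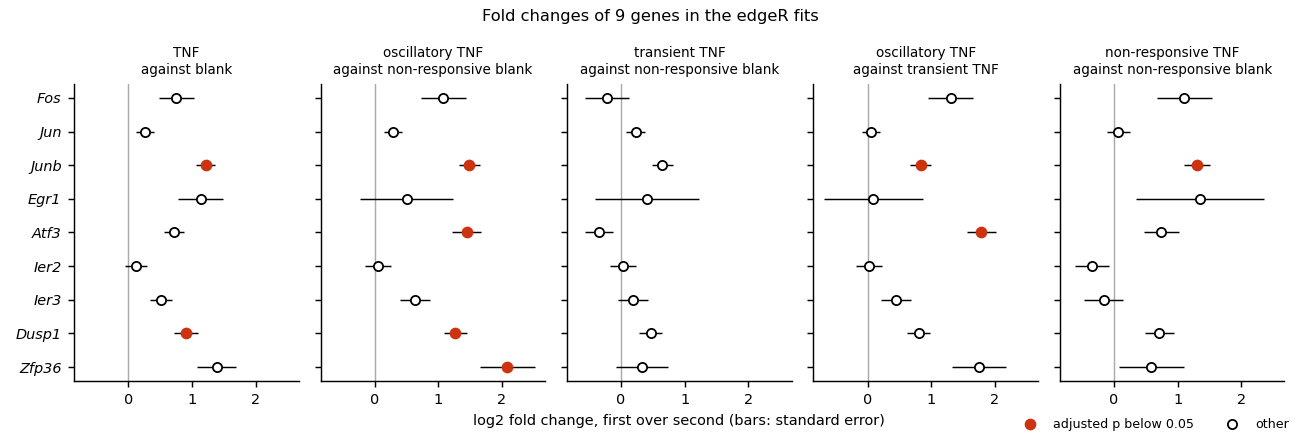
Log2 fold changes (horizontal axis, first group over second, with standard errors as bars) of 9 genes in 5 comparisons, with n = 2 experiments except for non-responsive TNF cells, which are 1 sum of 1 experiment. Filled red points passed an adjusted p of 0.05: Junb and Dusp1 with TNF, 4 genes in oscillatory against blank cells, 0 in transient against blank cells, Junb and Atf3 in oscillatory against transient cells, and Junb in non-responsive TNF cells.

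Junb, an AP-1 subunit that can replace Jun and has weaker activity, was the gene called in most comparisons. Its sums stood at 151 and 323 CPM in TNF cells of the 1-plate and the 2-plate experiment, against 68.3 and 141 CPM in blank cells. TNF cells were higher on each of the 3 plates, by 2.21-fold to 2.44-fold, and the log2 fold change was 1.21 ± 0.15 (SE, n = 2 experiments, edgeR adjusted p = 0.0061). By class, oscillatory TNF cells had 208 and 343 CPM, transient TNF cells 99.97 and 240.1 CPM, and non-responsive blank cells 70.4 and 143 CPM, the same order in both experiments. Single oscillatory cells of the 1-plate experiment ran from 19.5 over a median of 134 to 677 CPM, and those of non-responsive blank cells from 1.27 over 34.9 to 322 CPM. In the 2-plate experiment the lowest, median and highest oscillatory cells had 48.7, 283 and 987 CPM, and the non-responsive blank cells 0, 71.7 and 735 CPM. Single cells of the classes overlapped. Of the oscillatory cells, 16 of 20 and 34 of 36 lay above the median of the blank cells of their experiment. So did 21 of 25 and 45 of 51 transient cells, so a place above the blank median did not set oscillatory cells apart. Of the blank cells, 2 of 13 and 5 of 34 lay above the median of the oscillatory cells.

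Junb was thus 1.49 ± 0.17 log2 units higher in oscillatory TNF than in non-responsive blank cells (edgeR adjusted p = 0.0027). Transient TNF cells stood 0.65 ± 0.16 log2 units above non-responsive blank cells, which did not pass (adjusted p = 0.16), although they were higher on 3 of 3 plates. That comparison passed with DESeq2 (adjusted p = 0.022). It also passed without the highest Junb cell of each sum, cells chosen by the tested level itself (log2 0.97, edgeR adjusted p = 0.044). As a mean of log2(CPM + 1) over cells, transient cells were 1.31 above non-responsive blank cells, and oscillatory cells 0.69 above transient cells. These means were not tested. Oscillatory cells stood 0.84 ± 0.16 log2 units above transient cells (edgeR adjusted p = 0.041), on 3 of 3 plates by 1.21-fold to 2.08-fold. This call was lost without any 1 of the 3 plates (edgeR adjusted p of 0.0535 to 0.244), with other filters on low counts (0.0681 and 0.121), without the cells under 8000 genes (0.0644) and in G2M cells alone (log2 0.48, 0.57). Non-responsive TNF cells, 18 cells of the 2-plate experiment in 1 sum, had 334 CPM, against 143 CPM in non-responsive blank cells there. Their log2 fold change was 1.30 ± 0.21 (edgeR adjusted p = 0.026), and they were 2.53-fold and 2.38-fold higher on Plate1 and Plate2. Without Plate2, which held 6 of the 18 cells at under 8000 genes, the log2 fold change was 1.23 and the adjusted p 0.093, and without all cells under 8000 genes it was 1.10 and 0.065.

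Atf3, which in mouse macrophages represses inflammatory genes, was higher in oscillatory TNF cells than in transient TNF and non-responsive blank cells. Its sums had 176 and 279 CPM in oscillatory TNF cells, 40.01 and 106 CPM in transient TNF cells, and 68.5 and 106 CPM in non-responsive blank cells. Transient and blank cells had about the same level in the 2-plate experiment. The log2 fold change was 1.79 ± 0.22 over transient cells (edgeR adjusted p = 0.011) and 1.44 ± 0.22 over non-responsive blank cells (adjusted p = 0.0081). Oscillatory cells were higher than transient cells on 3 of 3 plates, by 1.59-fold to 4.40-fold. Transient cells had 0.58-fold to 1.22-fold the Atf3 level of non-responsive blank cells on the 3 plates. Non-responsive TNF cells, which are 1 sum, were above blank cells, but Atf3 did not pass there. On the plates of the 2-plate experiment, non-responsive TNF cells had 1.42-fold to 2.08-fold the Atf3 level of non-responsive blank cells. They had 0.86-fold to 0.90-fold the mean of oscillatory and transient cells. Over the same blank cells they had 1.08-fold to 1.72-fold for Dusp1 and 0.91-fold to 1.48-fold for Zfp36. Single cells held much of the reads: 1 cell held 53.5% of the Atf3 reads of the oscillatory sum and 1 cell 84.1% of those of the non-responsive blank sum in the 1-plate experiment. Without the highest cell of each sum the difference from transient cells was 1.41 log2 units and did not pass (edgeR adjusted p = 0.15), and that from non-responsive blank cells was 2.08 and passed (0.026). The call over transient cells was also lost without the 1-plate experiment (log2 1.51, adjusted p = 0.13) and without Plate2 of the 2-plate experiment (1.40, 0.15), and with edgeR's default filter (1.80, 0.059), and that over blank cells was lost without either of these (0.054 and 0.080).

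In all TNF against blank cells Atf3 had 99.5 and 195 CPM, against 54.97 and 139 CPM in blank cells, and did not pass (log2 0.71 ± 0.16, edgeR adjusted p = 0.059). It passed with DESeq2, with thinned cells, with cells of 8000 or more genes, without Plate1 of the 2-plate experiment, and without the highest cell of each sum. Medians over single cells of the 1-plate experiment were 51.3 CPM in oscillatory, 0 CPM in transient and 0 CPM in non-responsive blank cells. They were 153, 38.1 and 31.3 CPM in the 2-plate experiment. The highest oscillatory cells reached 1135 and 1285 CPM, and 3 of 13 and 9 of 34 blank cells exceeded the oscillatory median of their experiment.

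Dusp1 rose with TNF, with 44.6 and 149 CPM in TNF cells, against 19.7 and 100.5 CPM in blank cells. TNF cells were 1.51-fold to 2.27-fold higher on the 3 plates (log2 0.91 ± 0.19, edgeR adjusted p = 0.044). The call was lost without the 1-plate experiment (log2 0.74, adjusted p = 0.074), with edgeR's default filter (0.88, 0.19) and in G2M cells alone (0.65, 0.20). In oscillatory TNF cells Dusp1 had 55.7 and 201 CPM, against 22.9 and 91.4 CPM in non-responsive blank cells. That difference was even over the plates, at 2.44-fold to 2.51-fold, and came to 1.27 ± 0.18 log2 units (edgeR adjusted p = 0.0062). In G2M cells alone it was 0.76 (adjusted p = 0.10). Transient cells had 39.3 and 101.03 CPM. Oscillatory cells were above them on 3 of 3 plates without passing (0.80 ± 0.18, adjusted p = 0.062), except with sums per plate (0.96, edgeR adjusted p = 0.047) and with DESeq2 (0.81, 0.00483). Single cells overlapped, with medians of 18.4 and 138 CPM in oscillatory and 12.1 and 25.8 CPM in non-responsive blank cells, and the highest blank cell of the 2-plate experiment stood at 1039 CPM.

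Zfp36 had the highest log2 fold change of the 9 genes in oscillatory over blank cells, and its fold differed between the experiments. Oscillatory TNF cells had 79.5 and 155 CPM, against 10.5 and 75.9 CPM in non-responsive blank cells, 7.58-fold and 2.04-fold higher. The log2 fold change was 2.08 ± 0.43 (edgeR adjusted p = 0.027). It was 1.27 without the 1-plate experiment (edgeR adjusted p = 0.037), where Plate1 and Plate2 of the 2-plate experiment served as replicates. Without Plate2 of the 2-plate experiment it was 1.97 (edgeR adjusted p = 0.059). With edgeR's default filter on low counts, which tests more genes, it was 2.08 with an adjusted p of 0.092. In transient cells Zfp36 had 13.5 and 93.4 CPM, against 10.5 and 75.9 CPM in non-responsive blank cells (log2 0.33 ± 0.41, adjusted p = 0.84). Oscillatory cells were above transient cells on 3 of 3 plates, by 1.62-fold to 5.88-fold, and did not pass (1.75 ± 0.43, adjusted p = 0.081), except with sums per plate (1.52, edgeR adjusted p = 0.047) and with DESeq2 (1.78, 2.35e-05). TNF cells as a whole had 42.1 and 122 CPM, against 9.60 and 78.04 CPM in blank cells (1.39 ± 0.31, edgeR adjusted p = 0.058). That comparison passed with DESeq2, without a filter on low counts, with thinned cells, with cells of 8000 or more genes, without Plate1 or Plate2 of the 2-plate experiment, and without the highest cell of each sum. In the 1-plate experiment the highest of 13 non-responsive blank cells had 28.6 CPM, below the median of 31.9 CPM of the 20 oscillatory cells. In the 2-plate experiment, 7 of 34 blank cells lay above the oscillatory median of 123 CPM.

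**Figure D3:**
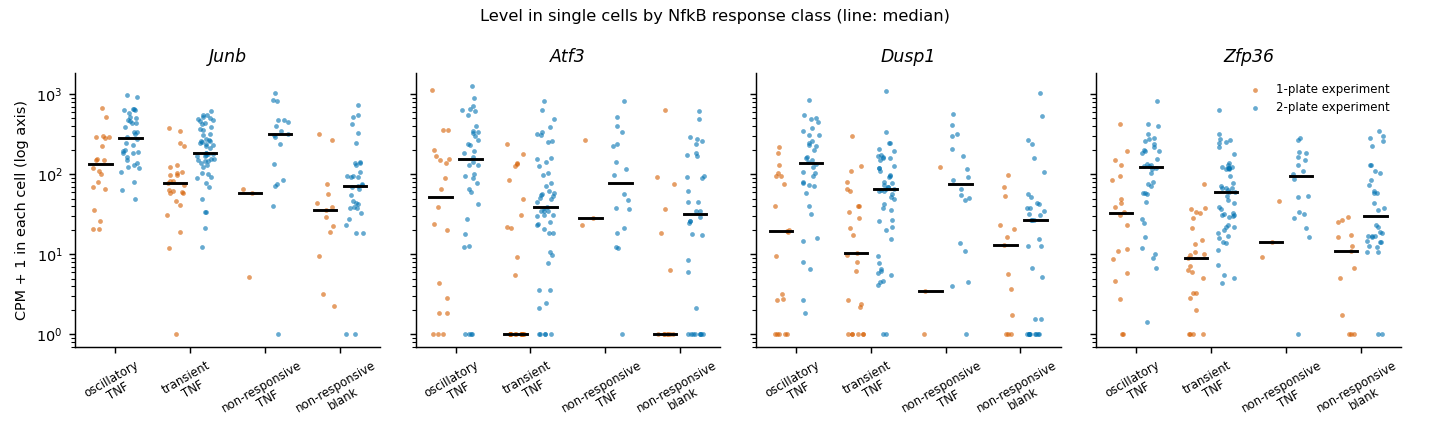
CPM + 1 of Junb, Atf3, Dusp1 and Zfp36 in each cell (log axis) by response class, with the 1-plate experiment in orange, the 2-plate experiment in blue and the median as a black line. Medians of oscillatory TNF cells are above those of non-responsive blank cells in both experiments for each of the 4 genes, and single cells of the classes overlap.

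Jun, the main AP-1 partner of Fos, did not pass in any comparison of stimulus or class and differed by plate. TNF cells had 59.2 and 445 CPM, against 49.2 and 398 CPM in blank cells (log2 0.26 ± 0.14, edgeR adjusted p = 0.49). Over all cells of a plate Jun had 56.7 CPM in the 1-plate experiment, 204 CPM on Plate1 and 692 CPM on Plate2 of the 2-plate experiment. Plate2 was above Plate1 in each of the 4 classes, by 2.90-fold in non-responsive blank cells to 5.24-fold in non-responsive TNF cells. Of 8288 genes, 19 were 2-fold or more higher on Plate2 in all 4 classes (0.229%) and 18 were 2-fold or more lower (0.217%), and Jun was the only one of the 10 among them. Dusp1 was higher on Plate2 by 1.53-fold to 3.48-fold, Atf3 by 1.22-fold to 3.38-fold, Junb by 1.35-fold to 2.21-fold, Zfp36 by 1.21-fold to 1.97-fold and Ier2 by 1.14-fold to 2.31-fold. Ier3 was lower on Plate2 in the 3 TNF classes (0.42-fold to 0.55-fold) and 3.74-fold higher in non-responsive blank cells. In the latter, 1 cell of Plate2 at 809 CPM held 33.1% of the Ier3 reads of all blank cells of the 2-plate experiment. Classes were spread over both plates, and the part of the plate in the results above was not tested beyond the values without each plate.

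**Figure D4:**
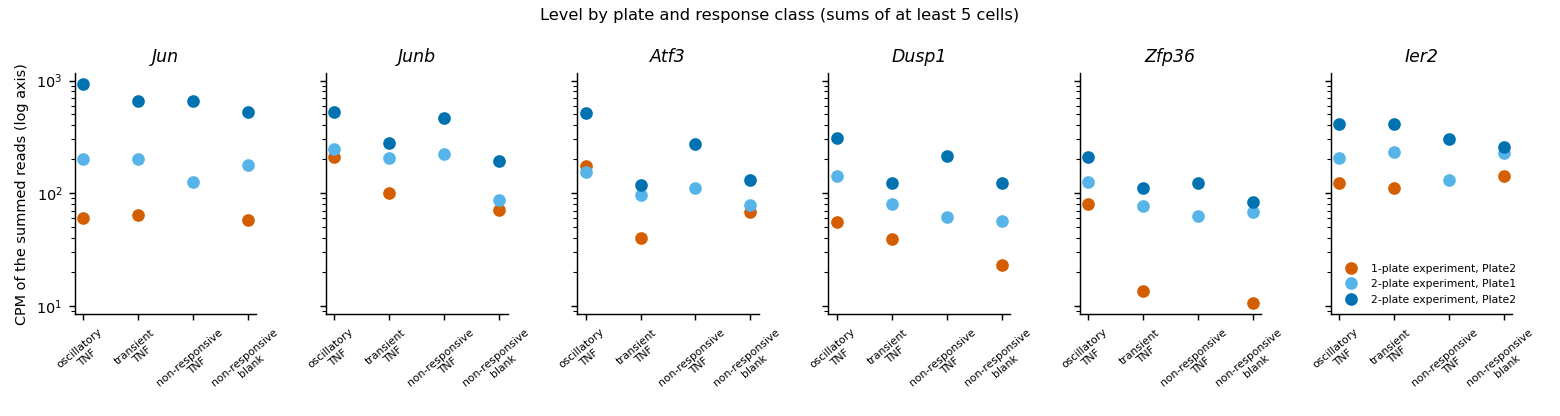
CPM of the summed reads (log axis) of 6 genes by response class, with 1 point per plate and class of at least 5 cells. Jun stands at 56.7, 204 and 692 CPM over all cells of the 3 plates, while Junb, Atf3, Dusp1 and Zfp36 are higher in oscillatory TNF than in non-responsive blank cells on each plate.

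Fos and Fosb, the partners of the Jun proteins, were sporadic. Fos had 39.3 and 41.1 CPM in TNF cells, against 17.5 and 34.3 CPM in blank cells (log2 0.75 ± 0.27, edgeR adjusted p = 0.26). Its median over cells was 5.74 CPM with TNF and 6.38 CPM in blank cells, while the highest cells stood at 703 and 180 CPM. Oscillatory TNF cells had 64.7 and 39.2 CPM, transient TNF cells 16.3 and 28.2 CPM and non-responsive blank cells 21.8 and 30.6 CPM. Oscillatory cells did not pass over transient cells (1.30 ± 0.35, edgeR adjusted p = 0.11) or over blank cells (1.08 ± 0.35, 0.11), but passed both with DESeq2 (adjusted p = 0.00284 and 0.0138). Of the Fos reads of oscillatory cells in the 1-plate experiment, 33.98% came from 1 cell. Fosb had 4 reads in 1 TNF cell and none in blank cells of the 1-plate experiment, and 1.46 CPM in TNF against 1.54 CPM in blank cells of the 2-plate experiment.

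Egr1 was read in a larger share of TNF than of blank cells, and its difference in summed reads did not pass. The sums had 72.96 and 44.02 CPM in TNF cells, against 55.2 and 12.9 CPM in blank cells (log2 1.13 ± 0.35, edgeR adjusted p = 0.18). A single blank cell held 79.6% of the Egr1 reads of the blank cells in the 1-plate experiment. Without the highest Egr1 cell of each sum the log2 fold change was 2.24 (edgeR adjusted p = 0.013), and with DESeq2 on all cells it was 1.13 (adjusted p = 0.018). The cells left out were chosen by their Egr1 level and held 79.6% of the 1-plate blank reads, against 40.1% of the 1-plate TNF reads. A read was seen in 19 of 51 and 83 of 127 TNF cells, against 5 of 16 and 13 of 44 blank cells, so the shares were further apart in the 2-plate experiment. By class, Egr1 had 80.6 and 24.4 CPM in oscillatory, 20.7 and 50.97 CPM in transient and 68.9 and 13.1 CPM in non-responsive blank cells. The order of the classes was thus different in each experiment, and the SE of these 3 class comparisons was 0.73 to 0.82 log2 units.

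Ier2 and Ier3 are small immediate early proteins, of which Ier3 is known as an NfkB target that bears on cell survival. Ier2 had 124 and 299 CPM in TNF cells, against 133 and 250.3 CPM in blank cells, opposite directions in the 2 experiments (log2 0.12 ± 0.17, edgeR adjusted p = 0.83). Ier3 had 104.9 and 103 CPM in TNF cells, against 64.04 and 87.2 CPM in blank cells (log2 0.52 ± 0.17, edgeR adjusted p = 0.21). Medians over cells of Ier3 were further apart, at 64.7 CPM with TNF and 25.1 CPM in blank cells, and 1 cell held 50.7% of its reads among the 1-plate blank cells and 1 cell 33.1% among the 2-plate ones. Without the highest Ier3 cell of each sum, cells chosen by the tested level itself, the log2 fold change was 1.12 and passed (edgeR adjusted p = 0.024). It was 0.96 without Plate2 (edgeR adjusted p = 0.00444) and 0.09 without Plate1 (0.98).

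The classes differ in cell cycle phase as the authors' tables give it. In S phase were 4 of 56 oscillatory, 19 of 76 transient and 8 of 47 non-responsive blank cells. Among TNF cells of the 1-plate and the 2-plate experiment, Atf3 had 285 and 284 CPM in G1, 53.7 and 182 CPM in G2M and 54.1 and 93.9 CPM in S cells. Without the highest Atf3 cell of each of these sums, a choice made after seeing the data, the G1 cells had 100.9 and 253 CPM, the G2M cells 42.5 and 158 CPM and the S cells 41.01 and 73.1 CPM. Fos followed the same order in the 2-plate experiment, with 77.9, 31.6 and 12.99 CPM in G1, G2M and S cells, and had 96.3, 26.3 and 22.2 CPM in the 1-plate experiment. Without the highest Fos cell of each sum those 3 values of the 1-plate experiment were 52.4, 19.6 and 2.86 CPM. Median Fos over TNF cells in G1 and G2M was 22.2 and 0.956 CPM in the 1-plate, and 7.96 and 9.88 CPM in the 2-plate experiment. In 2-plate blank cells G1 was below G2M, at 112 and 159 CPM for Atf3 and 30.1 and 37.6 CPM for Fos. In 1-plate blank cells (3 in G1) it was above, at 199 and 9.30 CPM for Atf3 and 20.97 and 19.4 CPM for Fos. There 1 G1 cell held 100% of the Atf3 reads and 98.6% of the Fos reads of the G1 sum. Without the highest cell of each sum G1 was below G2M, at 0 and 3.89 CPM for Atf3 and 0.41 and 9.99 CPM for Fos. In G2M cells alone, oscillatory TNF cells were still above non-responsive blank cells for Atf3 (log2 1.84, edgeR adjusted p = 0.033), Junb (1.16, 0.022) and Zfp36 (1.51, 0.034). Atf3 in oscillatory against transient G2M cells was 1.51 (adjusted p = 0.27), a comparison in which 0 of 8373 genes passed edgeR's test, with 663 at an unadjusted p under 0.05. In G1 oscillatory cells Atf3 had 469 and 419 CPM (4 and 12 cells), against 49.6 and 125 CPM in G1 transient cells (4 and 14 cells). Without the highest cell of each sum they had 110.6 and 373 CPM in oscillatory and 19.1 and 99.5 CPM in transient cells.

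Across TNF cells, the levels of several of the genes went together. Spearman correlations of CPM were highest for Atf3 with Zfp36, at 0.69 over 51 cells of the 1-plate experiment and 0.68 over 127 cells of the 2-plate experiment. Within Plate1 and Plate2 of the 2-plate experiment they were 0.58 and 0.74, and over blank cells 0.52 (16 cells) and 0.64 (44 cells). Jun correlated with Zfp36 at 0.57 and 0.58, and with Dusp1 at 0.49 and 0.66. Junb went with Ier2 at 0.60 and 0.45, whereas Junb with Jun came to 0.13 and 0.55. Fos with Fosb came to 0.17 in both experiments, and to -0.14 within Plate1 and 0.31 within Plate2. The median over the 45 pairs was 0.23 and 0.32. These points share a plate, a depth and a response class, and the values are a description.

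**Figure D5:**
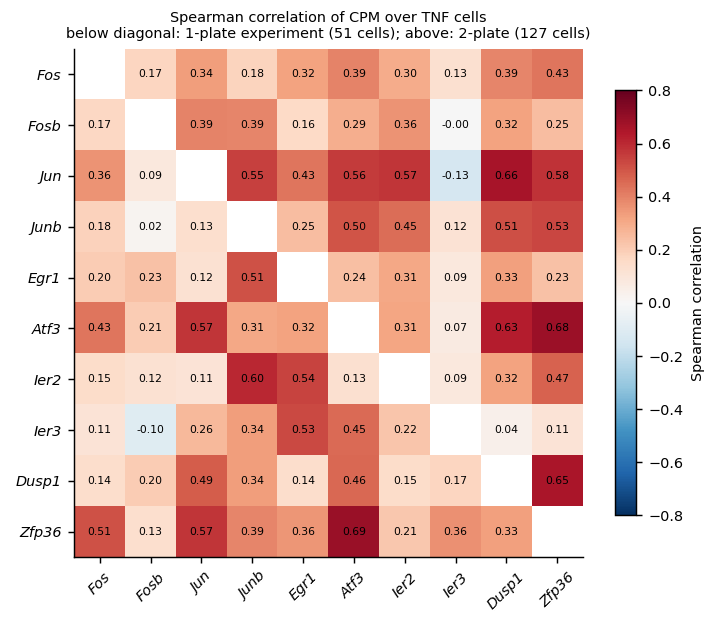
Spearman correlation of CPM over TNF cells for each pair of the 10 genes, below the diagonal for the 1-plate experiment (51 cells) and above it for the 2-plate experiment (127 cells). Atf3 with Zfp36 is at 0.69 and 0.68. Ier3 lies between -0.13 and 0.13 with each other gene in the 2-plate experiment, and between -0.096 (Fosb) and 0.53 (Egr1) in the 1-plate experiment.

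Likeness was also ranked among 10932 genes with a read in at least 25% of cells, by the mean Spearman correlation of the 2 experiments over all cells. Atf3 was the gene most like Zfp36 (0.68) and the gene most like Dusp1 (0.53). Junb was the gene most like Ier2 (0.497), and Ier2 the gene most like Egr1 (0.457). Seen from Atf3, Zfp36 ranked 5 (0.68, against 0.695 for the highest gene), and seen from Jun it ranked 3 (0.55). For Junb the highest member was Ier2 at rank 5. The highest members for Fos, Fosb and Ier3 were Atf3 at rank 2, Dusp1 at rank 10 (of 10933) and Egr1 at rank 22. Many other pairs ranked far lower: from Atf3, Dusp1 ranked 84 and Ier2 1466, and from Zfp36, Dusp1 ranked 98. The other genes at the top of these ranks have identifiers without names and are not described here.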

How the data were processed

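Single GMPs were profiled by Smart-Seq2. The deposited tables hold raw read counts per gene, and the submitters' processing notes name Subread 1.5.0, featureCounts and SAMtools. No strand setting or genome build is stated, so overlapping or antisense genes cannot be told apart. Of the count columns, 357 matched no sample and were not used. Stimulus, response class and cell cycle phase come from the authors' deposited cell tables, which list 238 of 282 samples; the other 44 have no stimulus there and entered no comparison. No pair of cells had identical counts.

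Counts were summed per experiment and stimulus (4 sums of 15208545 to 200524120 reads) or per experiment and class with at least 5 cells (10 sums of 6371417 to 81353924 reads). The 92 spike-in features were left out. Genes with at least 10 CPM in 50% of the sums were tested with edgeR 4.0.16 (R 4.3.3; quasi-likelihood, TMM, experiment as a term, Benjamini-Hochberg below 0.05 over all genes). The experiment term pairs TNF, blank, oscillatory, transient and non-responsive blank sums, which both experiments hold; the non-responsive TNF sum comes from the 2-plate experiment alone and is not paired over experiments. The sums leave 1 and 2 residual degrees of freedom. The experiment term takes up differences in level between the 2 experiments. P-values thus measure how far the group differences vary between the 2 experiments, which may be technical. edgeR draws the spread of each gene toward that of all genes, with 6.78 and 5.64 prior degrees of freedom. The SE is the absolute log2 fold change over the square root of F. The code was tested on simulated data.

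DESeq2 1.42.0, other filters and scalings, other sums, thinned or fewer cells and leaving out each plate were tried. Sums per plate, and fits without the 1-plate experiment, took plates and not experiments as replicates. The fit on G2M cells and the phase sums without their highest cell were chosen after seeing the data. Shares have exact 95% binomial intervals (SciPy 1.17.1). The 10 genes, the lists and the tests were chosen with earlier results of these data known. Full values are given for genes called in any comparison and for those highest and lowest in level, and summary values for the others. Identifiers were not paired with names in the tables, so other gene lists were not analysed here.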

Additional observations from a re-analysis of the deposited data

Results flagged for a closer look

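In groups of 4 to 10 cells, 1 cell stood apart from the rest in 15 of 30 combinations of group and gene. The limit used flags about 1 in 20 groups of independent, normally distributed values. The 30 combinations come from 14 cells whose genes are correlated and whose CPM is skewed, so the count cannot be read against that rate. These are single cells of small classes that are not compared as classes here. Their reads are part of the sums of TNF against blank. An oscillatory blank cell at 920 CPM of Atf3 held 21.6% of the Atf3 reads of the blank cells of the 2-plate experiment.

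In the 5 sustained TNF cells, 1 G1 cell was highest for 9 of the 10 genes. The highest cell had 628 CPM of Fos (others 0 to 52.01), 14.6 CPM of Fosb (others 0), 2174 CPM of Jun (83.6 to 380), 1470.2 CPM of Junb (91.04 to 409), 1155 CPM of Atf3 (0 to 95.6), 1148 CPM of Ier2 (84.01 to 280) and 472 CPM of Zfp36 (15.1 to 124). For Ier3 another cell was highest, with 747 CPM (0 to 121). In the 4 TNF cells of the outlier class, 1 S-phase cell had 14.5 CPM of Fos (others 0 to 0.867) and 10.4 CPM of Atf3 (0 to 1.73), and another cell, in G2M, had 1141 CPM of Egr1 (0 to 10.4). In the 5 oscillatory blank cells, 1 cell of Plate2 had 920 CPM of Atf3 (others 0 to 143), 372 CPM of Dusp1 (0 to 17.8) and 208 CPM of Zfp36 (16.4 to 42.3), and another cell, of Plate1, had 9.58 CPM of Fosb (others 0).

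The 44 wells outside the cell tables held 1805 to 1130586 reads each and also held reads of 9 of the 10 genes. Their summed reads were 114 for Fos, 2169 for Jun, 1903 for Junb, 928 for Egr1, 692 for Atf3, 1806 for Ier2, 1079 for Ier3, 845 for Dusp1 and 621 for Zfp36, with 0 for Fosb.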

How the results depend on the processing

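Of 126 values of called genes under an alternative, 84 were still called, and of 756 values of the 9 genes 56 changed sign, 0 of them called. Causes were not tested unless stated. Precision is limited by 2 experiments and by single cells that hold much of a sum.

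Without the experiment term, that is with no replicate block, genes called were 0 (against 298) for TNF against blank, 31 (against 732) for oscillatory against blank, 1 (against 104) for transient against blank, 0 (against 259) for oscillatory against transient, 3 (against 183) for non-responsive TNF against blank and 5 (against 547) jointly, with 0 of the 9 in each. With spike-in factors the counts were 0, 33, 5, 1, 3 and 22, with 0 of the 9 in each; these factors put the median log2 fold change of all genes at -0.87 to 0.53. edgeR's default filter, which tests more genes, gave 69, 390, 22, 33, 47 and 228, with 0 of the 9 for TNF against blank, oscillatory against transient and non-responsive TNF, and 2 jointly. DESeq2 gave 530, 1171, 277, 584 and 483, and 93 for non-responsive against responding TNF cells (0 by edgeR), with 5 of the 9 for TNF against blank, 5 for oscillatory against transient and 1 for transient against blank. G2M cells alone gave 167, 287, 0 for oscillatory against transient and 165 jointly, with 1, 0 and 0 of the 9 for TNF against blank, oscillatory against transient and jointly. No filter gave 156 genes and 1 of the 9 for oscillatory against transient. Sums per plate gave 4 of the 9 there, and 369 genes for non-responsive TNF against blank.

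Thinned cells gave 4 of the 9 for TNF against blank and 1 gene for non-responsive against responding TNF cells. Cells with 8000 or more genes gave 4 of the 9 for TNF against blank, 1 for oscillatory against transient, 0 for non-responsive TNF against blank, and 3 genes for non-responsive against responding TNF cells. Without the highest cell, in fits that drop cells by the tested gene's own level, these were 6 for TNF against blank, 1 for transient against blank and 1 for oscillatory against transient.

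Leaving out each plate gave 187 to 552 genes and 1 to 4 of the 9 for TNF against blank, 245 to 584 and 2 to 4 for oscillatory against blank, 7 to 76 for transient against blank, 0 to 49 and 0 to 1 for oscillatory against transient, 89 to 137 and 0 to 1 for non-responsive TNF against blank, and 144 to 368 and 1 to 2 jointly. With TNF, Jun ran from -0.14 to 0.51 and Ier2 from -0.14 to 0.37, both lowest without Plate2 of the 2-plate experiment. In transient against blank cells Atf3 (-0.35) ran from -0.43 to 0.18, and was 0.056 with spike-in factors, 0.33 in G2M cells, 0.67 without the highest cell and 0.35 as a mean of log2(CPM + 1). Fos (-0.22) was 0.066 with spike-in factors. In non-responsive TNF against blank cells Fos (1.11) was -0.20 as a mean of log2(CPM + 1).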
